A study of Homo sapiens with 12 samples.

Results

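The 37 genes described here encode oxygen-dependent dioxygenases that act on histones, other proteins, DNA and RNA. They were chosen by name from the 34694 gene symbols of 2 deposited expression tables, and 37 of 37 were present in both tables. They fall into 17 JmjC histone demethylases, 8 other JmjC proteins, 3 TET enzymes and 9 genes of the ALKBH/FTO family. The study profiled mRNA of KYSE410 and KYSE150, which are established human esophageal squamous carcinoma lines, after culture in hypoxia or normoxia. Its design asks which transcripts differ between the oxygen levels. Both lines are labelled WT, and the 4 groups were KYSE410 in 0.5% oxygen for 48 h, KYSE410 in 21% oxygen, KYSE150 in 0.5% oxygen for 48 h and KYSE150 in 21% oxygen, with 3 libraries in each group. The labels give the 21% groups a hypoxia duration of 0 h and the design text names 48 h for both oxygen levels, and nothing states that the 3 libraries of a group came from separate cultures, so a p-value here reflects only how far these libraries spread, and part of that spread may be technical.

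These enzymes share a catalytic cycle in which iron(II), molecular oxygen and 2-oxoglutarate are used to hydroxylate a substrate. A methyl group bound to nitrogen, as in methylated lysines, leaves once it is hydroxylated. The JmjC demethylases erase methyl marks from histone tails, the TET enzymes oxidize methylcytosine in DNA, and ALKBH proteins with FTO remove alkyl groups from DNA and RNA. Because oxygen is a substrate, their activity can fall in hypoxia without any change in mRNA, and some of their genes, KDM3A and KDM4B among them, are known targets of the hypoxia-inducible factors. Only mRNA was measured here, so the values say nothing of enzyme activity. In bulk RNA, fewer cells that express a gene and less RNA per cell cannot be told apart.

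Levels are given in FPKM, fragments scaled by transcript length and by library size, a unit inferred from the values. A gene was tested in a line if its mean over the libraries of the fit was at least 1 FPKM. It is called higher or lower when limma, a linear model with moderated variances fitted across all tested genes on log2(FPKM + 1), gave a Benjamini-Hochberg adjusted p under 0.05 for hypoxia minus normoxia. Fold changes on that scale understate the change of low genes. The ratios of mean FPKM given beside them do not have this limit.

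The columns summed to between 351501 and 425094 FPKM, and read depth is unknown. The hypoxia markers CA9, NDRG1, BNIP3 and ADM rose in both lines, with CA9, a carbonic anhydrase, at 54.7 ± 4.99 FPKM in KYSE410 hypoxia and 4.05 ± 0.354 FPKM in KYSE410 normoxia, and at 76.8 ± 4.24 FPKM in KYSE150 hypoxia and 9.80 ± 0.292 FPKM in KYSE150 normoxia (SD, n = 3 each). Of 6 squamous markers, 5 had a group mean of at least 1 FPKM in KYSE410 in both oxygen levels, and 1, KRT17, did in KYSE150. In KYSE150, KRT5 was at most 0.121 FPKM in hypoxia and at 0 in all 3 normoxia libraries, and TP63 averaged 0.211 FPKM in hypoxia and 0.283 FPKM in normoxia. Of 5 general epithelial markers, KRT8 and KRT18 were at 264 FPKM or more in every KYSE150 library, EPCAM averaged 6.83 FPKM in KYSE150 hypoxia and 4.495 FPKM in KYSE150 normoxia, and CDH1 and KRT19 were at most 0.432 FPKM in that line. The summed squamous markers lay between 1140 and 1156 FPKM in KYSE410 hypoxia and between 286 and 294 FPKM in KYSE410 normoxia, and between 406 and 444 FPKM in KYSE150 hypoxia and between 192 and 251 FPKM in KYSE150 normoxia. The summed general epithelial markers went the other way in KYSE410, between 1051 and 1104 FPKM in hypoxia and between 1915 and 2038 FPKM in normoxia. In KYSE150 they lay between 678 and 702 FPKM in hypoxia and between 552 and 716 FPKM in normoxia. The part of these markers in the results below was not tested. Endothelial and leukocyte markers summed to at most 0.386 FPKM in any library, and 4 fibroblast markers to between 0.482 and 1.61 FPKM in KYSE410 and between 5.02 and 6.63 FPKM in KYSE150, mostly COL1A1. One library stood apart, KYSE150 normoxia replicate 2. There the deviation of each gene from the mean of the other libraries of the group ran against transcript length. The Spearman rho was -0.63 over 12181 genes. The tested JmjC demethylases lay a median 0.38 log2 units below the mean of those other libraries (-0.375). Results in KYSE150 are given with and without this replicate where it matters. In KYSE410 the sample numbers in the labels run from 38 to 40 for normoxia and from 56 to 58 for hypoxia, so a difference in library set and the oxygen level cannot be told apart, while in KYSE150 they run from 50 to 55.

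More members were called lower than higher in KYSE410, and in KYSE150 most of the demethylases were called higher. In KYSE410, 7 of the 34 tested members were called higher and 23 lower in hypoxia, where 31.2% of the 12054 tested genes were called higher and 51.9% lower. In KYSE150, 13 of 34 were called higher and 9 lower, where 23.5% of 12692 tested genes were called higher and 38.8% lower. The median log2 change of the tested members was -0.42 in KYSE410, beside -0.21 over all tested genes, and 0.02 in KYSE150, beside -0.13 over all tested genes. Scaling each library by the median of ratios moved the median of all genes to -0.03 in KYSE410 and 0.02 in KYSE150 and gave 10 members higher and 22 lower in KYSE410 and 15 higher and 8 lower in KYSE150. With quantile normalization the KYSE410 split was 11 higher and 16 lower, and with columns rescaled to a common sum it was 4 higher and 26 lower. Shares of all tested genes called under these scalings are not given here. Among the 23 called lower in KYSE410, KDM7A, RIOX1 and JMJD4 were below 1 FPKM on average in hypoxia and passed the filter only through their normoxia libraries, so a difference was built into their passing.

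The 2 lines shared 14 calls of the same direction, 41.2% of the 34 members, beside 43.3% of the 10951 genes tested in both lines. KDM3A, KDM4B, KDM4C, JMJD6 and FTO were called higher in both, and KDM4A, RIOX1, RIOX2, JMJD4, TYW5, TET3, ALKBH2, ALKBH3 and ALKBH8 were called lower in both. KDM2A, KDM3B, KDM5B, KDM6B, KDM7A and PHF2, all histone demethylases, were called lower in KYSE410 and higher in KYSE150, 17.6% of the members, beside 5.37% of those genes. KDM2B, JMJD1C, KDM5A, KDM6A, PHF8, HSPBAP1, ALKBH1 and ALKBH4 were called lower in KYSE410 and not called in KYSE150, ALKBH5 and ALKBH7 were called higher in KYSE410 and not called in KYSE150, and KDM5C and TET2 were called higher in KYSE150 and not called in KYSE410. JMJD8 and ALKBH6 were called in neither line, with changes of -0.05 and -0.00 in KYSE410 and of 0.16 and -0.29 in KYSE150.

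**Figure D1:**
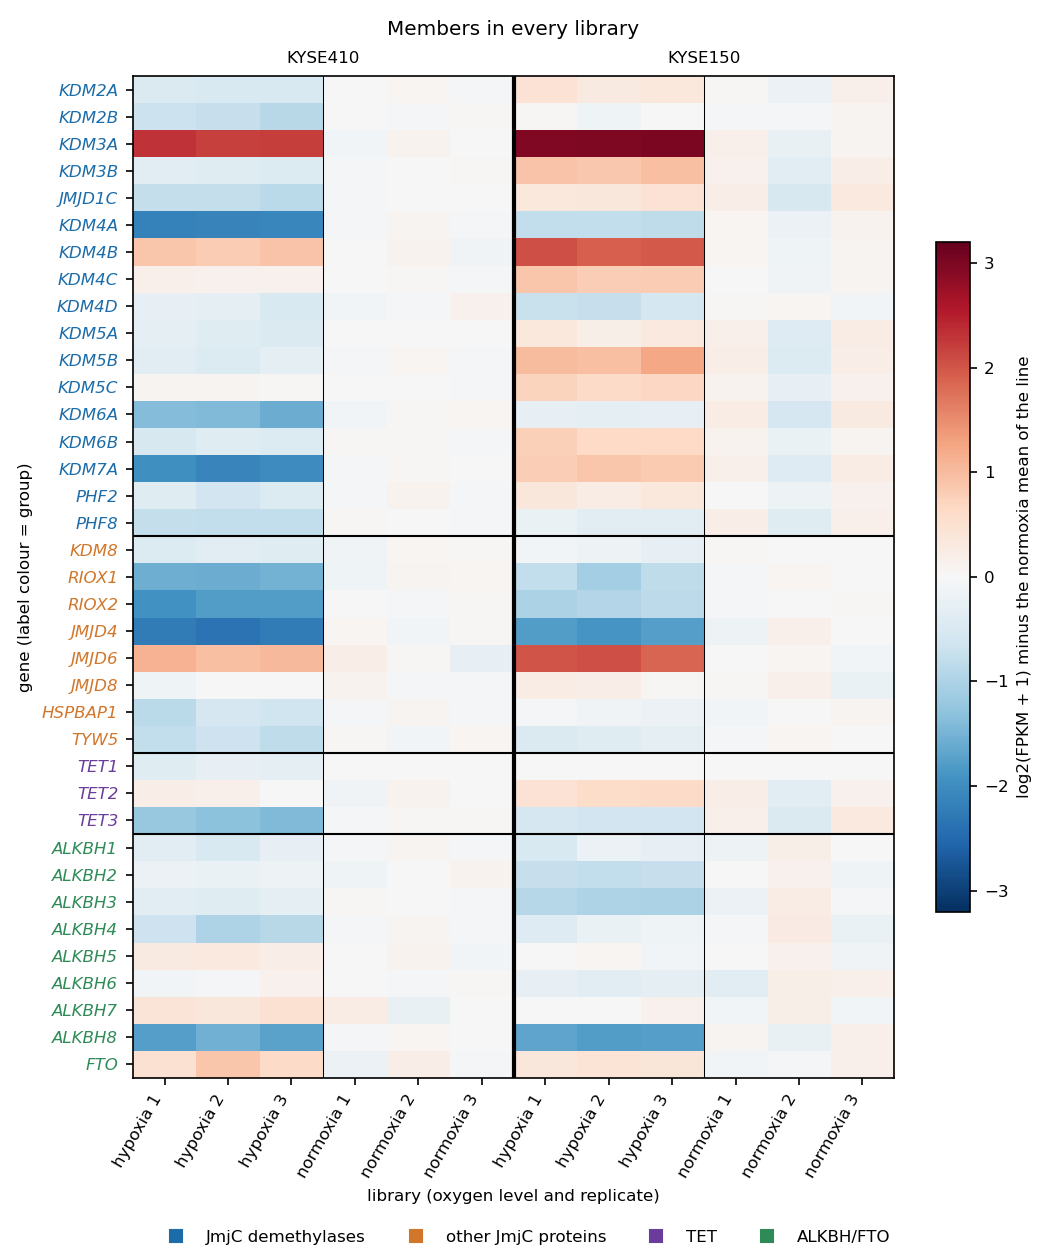
Level of each of the 37 members in each of the 12 libraries, as log2(FPKM + 1) minus the mean of the normoxia libraries of the same line, on a colour scale from blue (lower) to red (higher), with members grouped by role and hypoxia columns left of normoxia columns. KDM3A, KDM4B and JMJD6 are red in the 6 hypoxia libraries, and the JmjC demethylases are mostly blue in KYSE410 hypoxia and mostly red in KYSE150 hypoxia.

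Of the 17 JmjC demethylases, 16 were tested in each line. In KYSE410, 3 were called higher, 12 lower and 1 not called, with a median log2 change of -0.46. Of all genes tested in KYSE410, 31.2% were called higher and 51.9% lower, with a median of -0.21. In KYSE150, 10 were called higher, 1 lower and 5 not called, with a median of 0.52. Of all genes tested in KYSE150, 23.5% were called higher and 38.8% lower, with a median of -0.13. Without KYSE150 normoxia replicate 2 the KYSE150 counts were 10 higher and 3 lower. The median was then 0.40, beside -0.13 over all tested genes. Shares of all tested genes called in that fit are not given here, and 23.5% and 38.8% belong to the fit with all libraries. The members that moved furthest were KDM3A, KDM4A, KDM4B and KDM7A.

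The KDM3 enzymes remove mono- and dimethyl marks from H3K9, a residue whose methylation is tied to silent chromatin. KDM3A (ENSG00000115548.16, chromosome 2, 86440647 to 86492716 on hg38) had 27.5, 25.3 and 25.9 FPKM in the KYSE410 hypoxia libraries, against 4.46, 5.18 and 4.66 FPKM in the KYSE410 normoxia libraries. It had 57.6, 58.6 and 59.8 FPKM in KYSE150 hypoxia, against 7.42, 5.35 and 6.94 FPKM in KYSE150 normoxia. Every hypoxia library was far above every normoxia library of its line, and KDM3A had the largest rise of the tested members in both. Its mean was 5.504 times as high in hypoxia in KYSE410, with a log2 change of 2.24 ± 0.06 (SE; limma, adjusted p = 1.11e-08), and 8.93 times as high in KYSE150, with a log2 change of 2.99 ± 0.11 (limma, adjusted p = 9.91e-07).

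KDM3B, the closest paralog of KDM3A and itself an H3K9 demethylase, did not follow it in KYSE410. KDM3B had 10.1, 9.87 and 9.43 FPKM in KYSE410 hypoxia, against 12.5, 13.4 and 13.6 FPKM in KYSE410 normoxia, and 19.1, 18.6 and 20.02 FPKM in KYSE150 hypoxia, against 10.7, 7.42 and 11.5 FPKM in KYSE150 normoxia. The groups did not overlap in either line, and they were ordered in opposite ways. The log2 change was -0.39 ± 0.05 in KYSE410 (limma, adjusted p = 9.30e-05) and 0.92 ± 0.14 in KYSE150 (limma, adjusted p = 9.17e-04). The fall in KYSE410 was no larger than that of genes of like length: with the length trend removed it was 0.06 and not called. JMJD1C, the third KDM3 family gene, had 7.55, 7.53 and 6.91 FPKM in KYSE410 hypoxia, against 13.1, 13.5 and 13.7 FPKM in KYSE410 normoxia. In KYSE150 it had 11.1, 11.2 and 12.1 FPKM in hypoxia, against 10, 5.68 and 10.8 FPKM in normoxia, with normoxia replicate 2 as the one library well below the rest. It fell in KYSE410, by a log2 change of -0.80 ± 0.05 (limma, adjusted p = 9.55e-07), and its change of 0.39 ± 0.20 in KYSE150 was not called (limma, adjusted p = 0.124). Without normoxia replicate 2 the KYSE150 change was 0.13 (limma, adjusted p = 0.0977), and without normoxia replicate 3 it was 0.54 and called (limma, adjusted p = 0.0444).

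The KDM4 enzymes act on trimethylated H3K9 and H3K36, and the paralogs KDM4A and KDM4B moved in opposite directions in both lines. KDM4B (ENSG00000127663.14, chromosome 19, 4969113 to 5153595) had 6.10, 5.77 and 6.23 FPKM in KYSE410 hypoxia, against 2.86, 3.199 and 2.55 FPKM in KYSE410 normoxia, and 17.7, 15.9 and 16.4 FPKM in KYSE150 hypoxia, against 3.68, 3.09 and 3.75 FPKM in KYSE150 normoxia. KDM4A (ENSG00000066135.12, chromosome 1, 43650158 to 43705515) had 4.99, 4.995 and 5.20 FPKM in KYSE410 hypoxia, against 24.6, 27.4 and 24.9 FPKM in KYSE410 normoxia, and 5.86, 5.88 and 5.74 FPKM in KYSE150 hypoxia, against 11.4, 9.37 and 11.9 FPKM in KYSE150 normoxia. For both genes no hypoxia library overlapped a normoxia library of its line. KDM4B rose by a log2 change of 0.86 ± 0.07 in KYSE410 (limma, adjusted p = 6.81e-06) and 1.97 ± 0.09 in KYSE150 (limma, adjusted p = 2.27e-06). KDM4A had a log2 change of -2.13 ± 0.05 in KYSE410, where normoxia was 5.06 times as high (limma, adjusted p = 8.81e-09), and of -0.79 ± 0.10 in KYSE150 (limma, adjusted p = 2.55e-04). In hypoxia the KDM4A level was thus close in both lines, 4.99 to 5.20 FPKM in KYSE410 and 5.74 to 5.88 FPKM in KYSE150, and the lines were further apart in normoxia; levels across the tables were not tested because the tables may have been normalized separately. Another annotated gene, AL451062.3, covers 40.2% of the exon bases of KDM4A on the same strand, and how reads were shared between them is not given in the sources used here.

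KDM4C had 19.6, 19.3 and 19.3 FPKM in KYSE410 hypoxia, against 17.8, 17.9 and 16.9 FPKM in KYSE410 normoxia. In KYSE150 it was lower throughout, with 4.68, 4.29 and 4.41 FPKM in hypoxia, against 2.12, 1.83 and 2.29 FPKM in normoxia. The groups did not overlap in either line. In KYSE410 the change was 0.14 ± 0.04 (limma, adjusted p = 0.0102), which was -0.09 and not called when columns were rescaled to a common sum. In KYSE150 KDM4C rose at 0.83 ± 0.09 (limma, adjusted p = 1.47e-04). KDM4D, a short family member known for testis expression, was too low to be tested: it had 0.736, 0.713 and 0.498 FPKM in KYSE410 hypoxia, against 0.952, 1.03 and 1.31 FPKM in KYSE410 normoxia, and 0.234, 0.217 and 0.372 FPKM in KYSE150 hypoxia, against 1.05, 1.08 and 0.906 FPKM in KYSE150 normoxia.

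**Figure D2:**
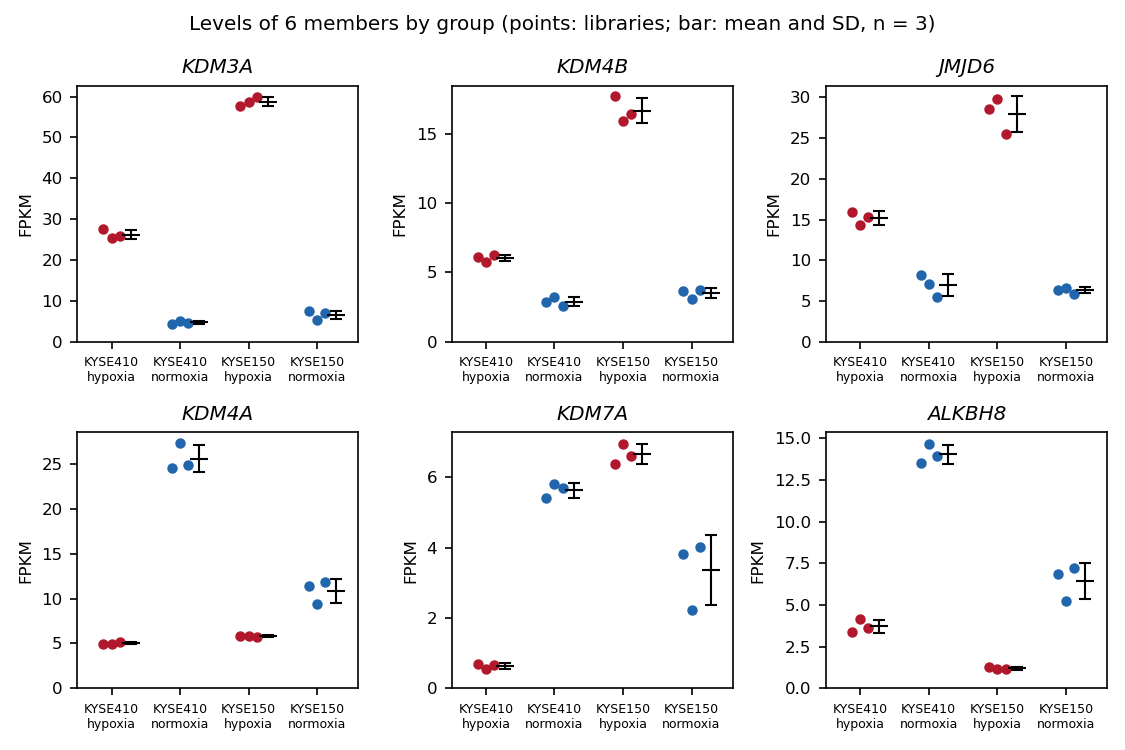
FPKM (linear axis from 0) of 6 members in each library, with hypoxia (red) left of normoxia (blue) for KYSE410 and then KYSE150, and a bar with the group mean and SD (n = 3) beside the points. KDM3A, KDM4B and JMJD6 lie higher in hypoxia in both lines and KDM4A and ALKBH8 lower, while KDM7A averages 0.632 FPKM in KYSE410 hypoxia and 5.63 FPKM in KYSE410 normoxia but 6.65 FPKM in KYSE150 hypoxia and 3.36 FPKM in KYSE150 normoxia.

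The start regions of these paralog pairs are shown because each sets a member with a large rise in both lines, KDM3A or KDM4B, beside a relative that did not rise in both, KDM3B or KDM4A. Each window runs from 250 bases before to 50 bases after the annotated start, from RefSeq on build GRCh38.p14, written 5′ to 3′ on the strand of the gene. Capitals mark the 5-base cores ACGTG and GCGTG of the hypoxia response element, searched on both strands, so that CACGT and CACGC are the same cores read from the other strand. KDM3A (first of its windows, chr2:86441121-86441420, plus strand) holds GCGTG at 26 bases before the start (-26), KDM3B (chr5:138352435-138352734, plus strand) holds neither core, KDM4B (chr19:4968863-4969162, plus strand) holds GCGTG at -224 and -77 and the palindrome CACGTG at -241, which counts once on each strand, and KDM4A (chr1:43649899-43650198, plus strand) holds GCGTG at -79.
KDM3A: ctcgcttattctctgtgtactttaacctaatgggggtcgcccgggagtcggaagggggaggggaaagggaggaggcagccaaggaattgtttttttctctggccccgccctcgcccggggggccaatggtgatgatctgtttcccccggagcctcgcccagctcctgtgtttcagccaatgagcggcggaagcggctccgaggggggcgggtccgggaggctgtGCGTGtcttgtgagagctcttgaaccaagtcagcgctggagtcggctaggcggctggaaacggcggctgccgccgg
KDM3B: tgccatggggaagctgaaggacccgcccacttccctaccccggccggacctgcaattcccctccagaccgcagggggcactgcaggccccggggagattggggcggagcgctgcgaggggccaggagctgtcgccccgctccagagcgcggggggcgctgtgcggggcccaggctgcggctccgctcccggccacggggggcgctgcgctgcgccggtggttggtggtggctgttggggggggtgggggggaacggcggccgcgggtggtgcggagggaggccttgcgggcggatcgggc
KDM4B: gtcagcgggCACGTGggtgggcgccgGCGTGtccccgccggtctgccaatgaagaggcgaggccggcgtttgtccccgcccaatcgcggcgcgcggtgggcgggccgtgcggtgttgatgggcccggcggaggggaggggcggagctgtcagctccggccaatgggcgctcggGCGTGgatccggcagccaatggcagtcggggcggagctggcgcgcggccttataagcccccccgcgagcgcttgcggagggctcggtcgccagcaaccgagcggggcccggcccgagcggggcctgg
KDM4A: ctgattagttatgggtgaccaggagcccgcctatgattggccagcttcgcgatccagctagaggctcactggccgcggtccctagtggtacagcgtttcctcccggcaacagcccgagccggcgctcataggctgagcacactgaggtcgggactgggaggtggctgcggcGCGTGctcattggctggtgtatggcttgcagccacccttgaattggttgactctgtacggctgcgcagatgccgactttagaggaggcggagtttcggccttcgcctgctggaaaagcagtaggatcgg
A core was thus present in a gene that rose and in one that fell. Such short matches are common: 17012 of 35116 windows of the same length (48.4%) held either core, and 32 of the 49 windows of the members did (65.3%). The core ACGTG alone was in 10 of the 49 member windows (20.4%), beside 21.4% of all windows. Counted by gene, 26 of the 34 members with a window held either core (76.5%), beside 52.4% of 27305 symbols. The count by gene also depends on how many windows a gene has, 49 for 34 members and 35116 for 27305 symbols. JMJD6, RIOX1 and RIOX2 had no window in the table. These counts describe letters in a window, not bound sites.

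The KDM2 enzymes bind unmethylated CpG islands through a zinc finger and act on H3K36. KDM2A had 7.49, 7.37 and 7.33 FPKM in KYSE410 hypoxia, against 10.6, 11.1 and 10.2 FPKM in KYSE410 normoxia, and 11.6, 10.1 and 10.6 FPKM in KYSE150 hypoxia, against 8.30, 7.02 and 9.14 FPKM in KYSE150 normoxia. It was called lower in KYSE410, with a log2 change of -0.47 ± 0.05 that was -0.02 once the length trend was removed. In KYSE150 it was called higher at 0.37 ± 0.11 (limma, adjusted p = 0.0173), and that call was lost without hypoxia replicate 1 (limma, adjusted p = 0.0704). KDM2B, a partner of a variant Polycomb complex, had 2.80, 2.62 and 2.30 FPKM in KYSE410 hypoxia, against 5.06, 4.90 and 5.24 FPKM in KYSE410 normoxia. In KYSE150 it had 7.06, 6.14 and 6.85 FPKM in hypoxia, against 6.67, 6.63 and 7.43 FPKM in normoxia, and the groups overlapped. KDM2B fell in KYSE410, at -0.77 ± 0.07 (limma, adjusted p = 1.00e-05), and its change of -0.04 ± 0.09 in KYSE150 was not called.

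The KDM5 enzymes remove methyl groups from H3K4, a mark of active promoters, and KDM5A is known as an oxygen-sensitive demethylase. KDM5B was low in KYSE410, with 1.96, 1.76 and 2.003 FPKM in hypoxia, against 2.65, 2.92 and 2.63 FPKM in normoxia. Its level in KYSE150 was 17.9, 17.1 and 20.8 FPKM in hypoxia, against 9.85, 5.91 and 9.79 FPKM in normoxia, and the groups did not overlap in either line. It was called lower in KYSE410 at -0.36 ± 0.07 (limma, adjusted p = 0.00122), a direction that turned to 0.16 when the length trend was removed, and it rose in KYSE150 at 1.07 ± 0.18 (limma, adjusted p = 0.00122). KDM5C, an X-linked family member, had 18.3, 18.5 and 17.9 FPKM in KYSE410 hypoxia, against 17.5, 17.6 and 16.9 FPKM in KYSE410 normoxia, and 44.7, 41.3 and 43.2 FPKM in KYSE150 hypoxia, against 29.4, 22.3 and 29.6 FPKM in KYSE150 normoxia. The KYSE410 change of 0.07 ± 0.04 was not called (limma, adjusted p = 0.112), and the KYSE150 rise of 0.66 ± 0.11 was (limma, adjusted p = 0.0014). KDM5C in KYSE410 took either sign with the scaling, 0.27 by the median of ratios and -0.16 with a common sum, each called. KDM5A averaged 5.16 ± 0.311 FPKM in KYSE410 hypoxia and 7.08 ± 0.0986 FPKM in KYSE410 normoxia, and 4.25 ± 0.281 FPKM in KYSE150 hypoxia and 3.41 ± 1.02 FPKM in KYSE150 normoxia (SD, n = 3 each). It was called lower in KYSE410 at -0.39, which became 0.13 and not called with the length trend removed, and it was not called in KYSE150.

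KDM6A and KDM6B erase the Polycomb mark H3K27 trimethylation, and KDM6A has a low oxygen affinity in biochemical assays. KDM6A had 5.66, 5.49 and 4.77 FPKM in KYSE410 hypoxia, against 15.2, 16.9 and 17.1 FPKM in KYSE410 normoxia. In KYSE150 it had 4.24, 4.05 and 4.25 FPKM in hypoxia, against 6.43, 3.34 and 6.67 FPKM in normoxia, where replicate 2 lay below the hypoxia libraries and the other normoxia libraries above them. KDM6A fell in KYSE410 by a log2 change of -1.47 ± 0.07, normoxia being 3.09 times as high (limma, adjusted p = 2.14e-07), and its change of -0.28 ± 0.21 in KYSE150 was not called (limma, adjusted p = 0.266). Without normoxia replicate 2 KDM6A was called lower in KYSE150 too, at -0.55 (limma, adjusted p = 1.43e-04). KDM6B, the inducible family member, had 4.33, 4.72 and 4.54 FPKM in KYSE410 hypoxia, against 6.72, 6.73 and 6.20 FPKM in KYSE410 normoxia, and 7.09, 6.51 and 6.53 FPKM in KYSE150 hypoxia, against 4.19, 3.16 and 4.14 FPKM in KYSE150 normoxia. It was called lower in KYSE410 at -0.45 ± 0.06 (limma, adjusted p = 9.42e-05), which became -0.00 and not called with the length trend removed, and higher in KYSE150 at 0.68 ± 0.11 (limma, adjusted p = 9.07e-04).

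KDM7A, PHF2 and PHF8 pair a JmjC domain with a PHD finger that reads H3K4 methylation, and KDM7A gave the widest gap between the lines. KDM7A (ENSG00000006459.10, chromosome 7, 140084746 to 140177035) had 0.705, 0.539 and 0.652 FPKM in KYSE410 hypoxia, against 5.40, 5.81 and 5.69 FPKM in KYSE410 normoxia. In KYSE150 it had 6.39, 6.96 and 6.62 FPKM in hypoxia, against 3.83, 2.23 and 4.03 FPKM in normoxia. The hypoxia libraries were thus the lowest of their line in KYSE410 and the highest in KYSE150, with no overlap. KDM7A fell in KYSE410 at -2.02 ± 0.07, normoxia being 8.91 times as high (limma, adjusted p = 3.60e-08), and rose in KYSE150 at 0.84 ± 0.17 (limma, adjusted p = 0.00291). In KYSE410 hypoxia KDM7A averaged 0.632 FPKM and passed the filter only through normoxia. A difference was thus built into its passing, and its KYSE410 change is a description. The same holds for its value of -1.51 with the length trend removed. The other members of the 6 with opposite calls were then no longer called lower in KYSE410. PHF8, an X-linked activator of ribosomal RNA genes, had 5.22, 5.12 and 5.12 FPKM in KYSE410 hypoxia, against 9.78, 9.57 and 9.36 FPKM in KYSE410 normoxia. In KYSE150 it had 10.2, 9.10 and 9.14 FPKM in hypoxia, against 14.2, 9.06 and 13.5 FPKM in normoxia, where replicate 2 lay among or below the hypoxia libraries. PHF8 fell in KYSE410 at -0.78 ± 0.05 (limma, adjusted p = 6.96e-07). Its KYSE150 change of -0.32 was not called with all libraries and was called at -0.51 without normoxia replicate 2 (limma, adjusted p = 2.48e-04). PHF2 averaged 3.59 ± 0.371 FPKM in KYSE410 hypoxia and 5.41 ± 0.456 FPKM in KYSE410 normoxia, and 6.56 ± 0.308 FPKM in KYSE150 hypoxia and 5.13 ± 0.654 FPKM in KYSE150 normoxia. PHF2 was called lower in KYSE410 at -0.48 (limma, adjusted p = 5.24e-04) and higher in KYSE150 at 0.31, and leaving out any KYSE150 hypoxia library or KYSE150 normoxia replicate 1 lost the KYSE150 call (limma, adjusted p from 0.0509 to 0.0902).

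**Figure D3:**
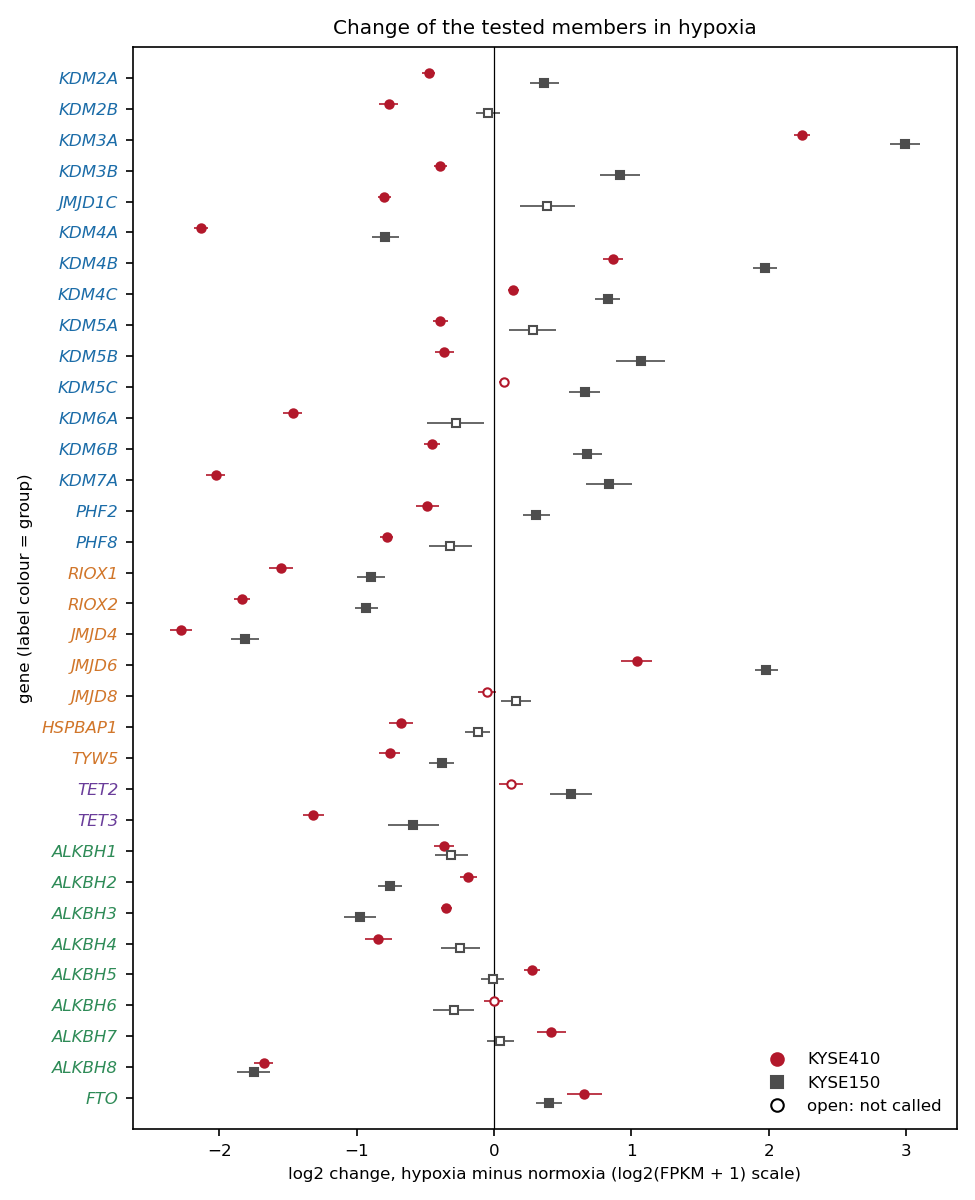
Log2 change, hypoxia minus normoxia on log2(FPKM + 1), of each tested member in KYSE410 and in KYSE150, with bars of 1 SE, filled where limma called it (adjusted p under 0.05) and open where it did not, and members grouped by role. Among the JmjC demethylases the KYSE410 change is below the KYSE150 change for 16 of 16, from KDM7A at -2.02 in KYSE410 and 0.84 in KYSE150 to PHF8 at -0.78 in KYSE410 and -0.32 in KYSE150.

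The other JmjC proteins are mostly hydroxylases of proteins or RNA. Of 8, 7 were tested in each line. In KYSE410, 1 was called higher, 5 lower and 1 not called, with a median log2 change of -0.76, where 31.2% of all tested genes were called higher and 51.9% lower. In KYSE150 1 was called higher, 4 lower and 2 not called, with a median of -0.38, where the shares were 23.5% and 38.8%. JMJD6, a lysyl hydroxylase of splicing factors, was the one that rose. It had 15.9, 14.3 and 15.3 FPKM in KYSE410 hypoxia, against 8.18, 7.13 and 5.55 FPKM in KYSE410 normoxia, and 28.6, 29.8 and 25.5 FPKM in KYSE150 hypoxia, against 6.42, 6.61 and 5.91 FPKM in KYSE150 normoxia. The groups did not overlap, and the means were 2.18 times as high in hypoxia in KYSE410 and 4.43 times as high in KYSE150. The log2 change was 1.04 ± 0.11 in KYSE410 (limma, adjusted p = 3.29e-05) and 1.98 ± 0.09 in KYSE150 (limma, adjusted p = 1.81e-06).

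RIOX1 and RIOX2 hydroxylate histidines of ribosomal proteins, and JMJD4 hydroxylates the translation termination factor eRF1; these hydroxylases of the translation apparatus fell in both lines. RIOX1 had 0.206, 0.183 and 0.241 FPKM in KYSE410 hypoxia, against 2.19, 2.73 and 2.72 FPKM in KYSE410 normoxia, and 2.37, 1.72 and 2.29 FPKM in KYSE150 hypoxia, against 4.65, 5.002 and 4.70 FPKM in KYSE150 normoxia. RIOX2 had 3.86, 4.41 and 4.36 FPKM in KYSE410 hypoxia, against 17.7, 16.8 and 18.1 FPKM in KYSE410 normoxia, and 3.79, 4.08 and 4.41 FPKM in KYSE150 hypoxia, against 8.43, 8.68 and 8.92 FPKM in KYSE150 normoxia. JMJD4 had 0.233, 0.138 and 0.250 FPKM in KYSE410 hypoxia, against 5.15, 4.46 and 4.96 FPKM in KYSE410 normoxia, and 2.24, 2.05 and 2.29 FPKM in KYSE150 hypoxia, against 9.06, 11.5 and 10.1 FPKM in KYSE150 normoxia. Every hypoxia library was below every normoxia library of its line for all 3 genes, and normoxia was 23.4 times as high in KYSE410 and 4.67 times as high in KYSE150 for JMJD4. The log2 changes of RIOX1, RIOX2 and JMJD4 were -1.55, -1.83 and -2.28 in KYSE410 and -0.90, -0.93 and -1.81 in KYSE150, with the highest limma adjusted p at 2.00e-04. RIOX1 and JMJD4 averaged 0.210 and 0.207 FPKM in KYSE410 hypoxia and passed the filter there only through normoxia. A difference was thus built into their passing, and their KYSE410 changes are a description. JMJD4 had the largest fall of the tested members in KYSE410, and in KYSE150 its fall and that of ALKBH8 were the deepest, in an order that depends on the 1 FPKM added before the log. SNAP47 lies on the opposite strand over 53.8% of the exon bases of JMJD4, and whether reads were counted by strand is not given in the sources used here. SNAP47 itself changed by -0.57 ± 0.13 in KYSE410 and -0.05 ± 0.08 in KYSE150, less than JMJD4 in each. CRYBG3 lies opposite 27.6% of the exon bases of RIOX2 and changed by -0.13 in KYSE410 and 0.55 in KYSE150.

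HSPBAP1, named for its binding to a small heat shock protein, had 1.89, 2.57 and 2.37 FPKM in KYSE410 hypoxia, against 4.07, 4.53 and 4.06 FPKM in KYSE410 normoxia. In KYSE150 it had 3.76, 3.51 and 3.29 FPKM in hypoxia, against 3.62, 3.86 and 4.25 FPKM in normoxia, with overlapping groups. TYW5, which hydroxylates wybutosine in a transfer RNA, had 1.67, 1.91 and 1.65 FPKM in KYSE410 hypoxia, against 3.76, 3.36 and 3.84 FPKM in KYSE410 normoxia, and 1.47, 1.62 and 1.76 FPKM in KYSE150 hypoxia, against 2.26, 2.53 and 2.42 FPKM in KYSE150 normoxia. HSPBAP1 fell in KYSE410 at -0.68 ± 0.09 (limma, adjusted p = 1.17e-04) and was not called in KYSE150, at -0.12 ± 0.09. TYW5 fell in both lines, at -0.76 ± 0.07 in KYSE410 (limma, adjusted p = 1.48e-05) and -0.38 ± 0.09 in KYSE150 (limma, adjusted p = 0.00658). JMJD8, a protein of the endoplasmic reticulum lumen, averaged 11.6 ± 0.779 FPKM in KYSE410 hypoxia and 12.04 ± 0.889 FPKM in KYSE410 normoxia, and 16.1 ± 1.32 FPKM in KYSE150 hypoxia and 14.3 ± 1.89 FPKM in KYSE150 normoxia, and was not called with all libraries but called higher in KYSE150 without normoxia replicate 2 (0.24; limma, adjusted p = 0.0463). STUB1 overlaps 37.4% of its exon bases on the opposite strand and was called lower in both lines, at -0.59 in KYSE410 and -0.78 in KYSE150. KDM8, an arginyl hydroxylase, was below the filter at 0.0930, 0.168 and 0.146 FPKM in KYSE410 hypoxia, against 0.388, 0.564 and 0.528 FPKM in KYSE410 normoxia, and 0.276, 0.210 and 0.117 FPKM in KYSE150 hypoxia, against 0.383, 0.326 and 0.331 FPKM in KYSE150 normoxia.

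The TET enzymes oxidize 5-methylcytosine, the first step of active DNA demethylation, and were low in both lines. TET1 was below the filter: it had 0.526, 0.662 and 0.625 FPKM in KYSE410 hypoxia, against 1.00, 1.00 and 0.973 FPKM in KYSE410 normoxia, and at most 0.014 FPKM in any KYSE150 library. TET3 had 1.46, 1.28 and 1.14 FPKM in KYSE410 hypoxia, against 4.42, 4.86 and 4.81 FPKM in KYSE410 normoxia, and 2.61, 2.46 and 2.43 FPKM in KYSE150 hypoxia, against 4.85, 2.82 and 5.47 FPKM in KYSE150 normoxia. TET2 had 2.2, 2.08 and 1.77 FPKM in KYSE410 hypoxia, against 1.57, 1.98 and 1.75 FPKM in KYSE410 normoxia, and 2.27, 2.56 and 2.62 FPKM in KYSE150 hypoxia, against 1.72, 0.851 and 1.61 FPKM in KYSE150 normoxia. TET3 was lower in every hypoxia library of both lines, and TET2 overlapped between oxygen levels in KYSE410 and was higher in every hypoxia library of KYSE150. TET3 fell in KYSE410 at -1.31 ± 0.08 (limma, adjusted p = 5.59e-07) and was called lower in KYSE150 at -0.59 ± 0.19 (limma, adjusted p = 0.0247). In KYSE150 the TET3 change without normoxia replicate 2 was -0.82 (limma, adjusted p = 4.21e-05), and leaving out any other KYSE150 library lost the call (limma, adjusted p from 0.0609 to 0.0765). The KYSE410 change of TET2, 0.13 ± 0.09, was not called. It was called higher in KYSE150 at 0.56 ± 0.15 (limma, adjusted p = 0.0132), or 0.39 without normoxia replicate 2, which at 0.851 FPKM was its lowest library.

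All 9 ALKBH/FTO genes were tested. In KYSE410, 3 were called higher, 5 lower and 1 not called, with a median log2 change of -0.19, and in KYSE150 1 was called higher, 3 lower and 5 not called, with a median of -0.29. In KYSE410 these counts are near the 31.2% of all tested genes called higher and 51.9% called lower, and in KYSE150 the lower ones are near 38.8%. The m6A demethylases are FTO and ALKBH5. FTO had 9.78, 13.2 and 10.7 FPKM in KYSE410 hypoxia, against 5.72, 7.97 and 6.56 FPKM in KYSE410 normoxia, and 6.16, 6.51 and 6.20 FPKM in KYSE150 hypoxia, against 4.17, 4.25 and 5.21 FPKM in KYSE150 normoxia. The groups did not overlap in either line. FTO rose at 0.66 ± 0.13 in KYSE410 (limma, adjusted p = 0.00122) and 0.40 ± 0.10 in KYSE150 (limma, adjusted p = 0.00745). ALKBH5 averaged 22.2 ± 0.702 FPKM in KYSE410 hypoxia and 18.2 ± 1.40 FPKM in KYSE410 normoxia, and 29.2 ± 1.65 FPKM in KYSE150 hypoxia and 29.5 ± 2.55 FPKM in KYSE150 normoxia. It was called higher in KYSE410 at 0.28 ± 0.06 (limma, adjusted p = 0.00202), a call lost with columns rescaled to a common sum (0.04), and not called in KYSE150.

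ALKBH8 modifies the wobble uridine of transfer RNAs and had the largest fall of this group. It had 3.40, 4.17 and 3.596 FPKM in KYSE410 hypoxia, against 13.5, 14.7 and 14.0 FPKM in KYSE410 normoxia, and 1.28, 1.13 and 1.19 FPKM in KYSE150 hypoxia, against 6.89, 5.23 and 7.21 FPKM in KYSE150 normoxia. The groups were widely separated, normoxia being 3.78 times as high in KYSE410 and 5.37 times as high in KYSE150. The log2 changes were close, -1.68 ± 0.07 in KYSE410 (limma, adjusted p = 9.48e-08) and -1.75 ± 0.12 in KYSE150 (limma, adjusted p = 1.47e-05). ALKBH2 and ALKBH3 repair alkylated bases directly, ALKBH2 in double-stranded DNA and ALKBH3 in single-stranded DNA and RNA. ALKBH2 had 18.8, 18.5 and 19.3 FPKM in KYSE410 hypoxia, against 19.6, 22.0 and 23.5 FPKM in KYSE410 normoxia, and 16.8, 16.4 and 17.0 FPKM in KYSE150 hypoxia, against 28.7, 32.2 and 26.4 FPKM in KYSE150 normoxia. ALKBH3 had 20.6, 20.3 and 21.4 FPKM in KYSE410 hypoxia, against 27.5, 26.5 and 26.0 FPKM in KYSE410 normoxia, and 8.84, 8.19 and 8.05 FPKM in KYSE150 hypoxia, against 15.2, 20.8 and 16.5 FPKM in KYSE150 normoxia. Both genes were lower in every hypoxia library than in any normoxia library of the same line. In KYSE410 ALKBH3 fell at -0.35 ± 0.04 (limma, adjusted p = 4.72e-05), while the ALKBH2 call at -0.19 ± 0.06 (limma, adjusted p = 0.0225) was lost on leaving out hypoxia replicate 1 or 2 or normoxia replicate 2 or 3 (limma, adjusted p from 0.0531 to 0.0742) and was 0.01 with median-of-ratios scaling. In KYSE150 the changes were -0.76 ± 0.09 for ALKBH2 (limma, adjusted p = 1.70e-04) and -0.97 ± 0.12 for ALKBH3 (limma, adjusted p = 2.15e-04).

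ALKBH4, known as a demethylase of actin, had 1.51, 1.01 and 1.16 FPKM in KYSE410 hypoxia, against 2.79, 3.24 and 2.89 FPKM in KYSE410 normoxia, and 2.06, 2.52 and 2.70 FPKM in KYSE150 hypoxia, against 2.89, 3.87 and 2.5 FPKM in KYSE150 normoxia. The groups overlapped in KYSE150. It fell in KYSE410 at -0.84 ± 0.10 (limma, adjusted p = 4.67e-05) and was not called in KYSE150 at -0.24 ± 0.14; ORAI2, opposite 25.3% of its exon bases, changed by -0.78 in KYSE410 and -0.77 in KYSE150, and it passed the filter in KYSE410 only through normoxia. ALKBH1, which acts on transfer RNA, was called lower in KYSE410 at -0.36 ± 0.07 and not called in KYSE150 at -0.31 ± 0.12 (limma, adjusted p = 0.0552), where leaving out normoxia replicate 1 gave -0.39 (limma, adjusted p = 0.0355). ALKBH7, a mitochondrial member tied to programmed necrosis, was called higher in KYSE410 at 0.42 ± 0.11 (limma, adjusted p = 0.00661) and not called in KYSE150 at 0.05 ± 0.10. ALKBH6 averaged 5.71 ± 0.554 FPKM in KYSE410 hypoxia and 5.71 ± 0.187 FPKM in KYSE410 normoxia, and 4.15 ± 0.132 FPKM in KYSE150 hypoxia and 5.41 ± 1.29 FPKM in KYSE150 normoxia, and was called in neither. Its KYSE150 change of -0.29 was -0.47 and called without normoxia replicate 1 (limma, adjusted p = 0.00501). Another annotated gene, AC002116.1, covers 25.1% of the exon bases of ALKBH6 on the same strand.

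The response itself was compared between the lines with the interaction of line and oxygen, fitted over all 12 libraries as the KYSE410 change minus the KYSE150 change. Since 1 FPKM was added before the log, a separate scaling of the tables does not cancel fully from this difference, and low members are touched most. Over 12653 tested genes, 27.3% were called with a more positive response in KYSE410 and 36.0% with a more negative one. Of the 34 tested members, 3 were called positive, 24 negative and 7 not called, with a median difference of -0.66, beside -0.09 over all genes. The JmjC demethylases were all called negative, 16 of 16, with a median of -0.97 and a range from -2.86 to -0.46. The other JmjC proteins were called negative in 6 of 7, and TET3 was called negative and TET2 not called. Of the 9 ALKBH/FTO genes 3 were called positive, near the 27.3% of all tested genes, 1 was called negative and 5 were not called, with a median of 0.29.

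KDM7A had the largest difference, -2.86 ± 0.19 (SE; limma, adjusted p = 2.20e-07). With 1 FPKM added before the log, KDM5B followed at -1.43 ± 0.21 (limma, adjusted p = 9.27e-05), KDM4A at -1.34 ± 0.11 (limma, adjusted p = 1.15e-06) and KDM3B at -1.31 ± 0.16 (limma, adjusted p = 3.13e-05). Differences below -1 were also called for KDM6A at -1.19 ± 0.24, JMJD1C at -1.19 ± 0.23, KDM6B at -1.13 ± 0.12 and KDM4B at -1.11 ± 0.11. For KDM4A the more negative value is a deeper fall in KYSE410, for KDM4B, KDM3A (-0.75) and JMJD6 (-0.95) a smaller rise, and for KDM7A, KDM5B, KDM3B and KDM6B opposite directions in the lines. ALKBH3 at 0.63 ± 0.13 (limma, adjusted p = 0.00112) and ALKBH2 at 0.57 ± 0.11 (limma, adjusted p = 7.17e-04) fell less in KYSE410 than in KYSE150, and ALKBH5 was called at 0.29 ± 0.10 (limma, adjusted p = 0.0306). ALKBH8 at 0.07 ± 0.14 and FTO at 0.26 ± 0.17 were not called. The low members RIOX1 and JMJD4, at -0.65 and -0.47, depended most on the added value: with 0.1 FPKM in its place they were -1.94 (limma, adjusted p = 8.67e-06) and -1.86 (limma, adjusted p = 1.70e-05), below KDM5B at -1.65, KDM7A was -3.98, and ALKBH8 was called at 0.43 (limma, adjusted p = 0.0484). Without KYSE150 normoxia replicate 2, a fit for which no share of all tested genes is given here, the member counts stayed at 3 positive and 24 negative. The 16 demethylases were called negative there with a median of -0.83. PHF8 was the weakest of these, at -0.46 ± 0.17 (limma, adjusted p = 0.0347), and lost its call without any one KYSE410 library or without KYSE150 hypoxia replicate 1 (limma, adjusted p from 0.053 to 0.0801). ALKBH5 lost its call without KYSE150 hypoxia replicate 1 or 3, KYSE410 hypoxia replicate 1 or 2 or KYSE410 normoxia replicate 1 or 3 (limma, adjusted p from 0.0504 to 0.0796). TET2, ALKBH6 and ALKBH7, uncalled with all libraries, gained a call on leaving out 1 library, TET2 without KYSE150 normoxia replicate 1 (-0.54) or 3 (-0.51), ALKBH7 without KYSE150 normoxia replicate 3 (0.42) or KYSE410 normoxia replicate 1 (0.50), and ALKBH6 without KYSE150 normoxia replicate 1 (0.47).

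**Figure D4:**
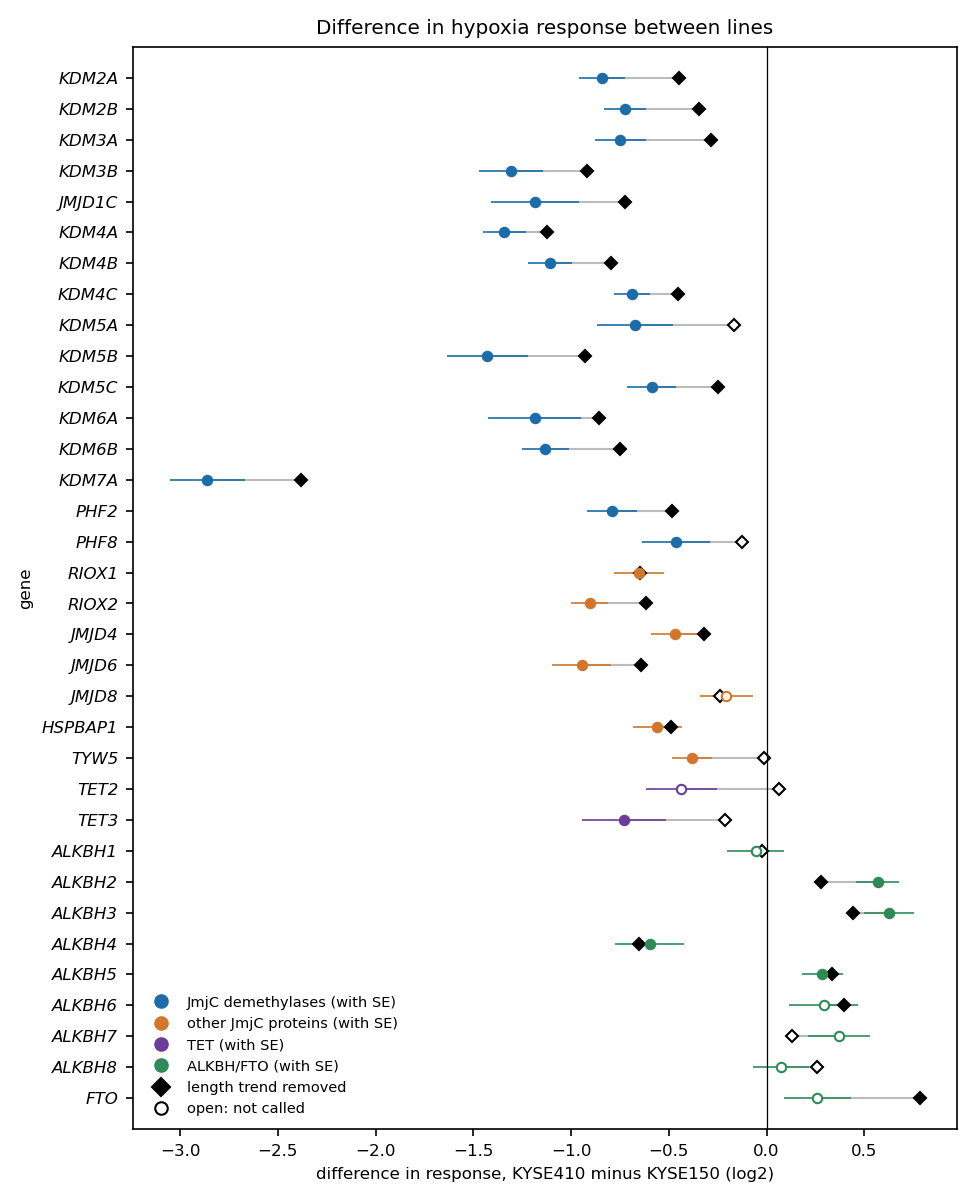
Difference in response (KYSE410 log2 change minus KYSE150 log2 change) of each tested member, coloured by group with bars of 1 SE, and a black diamond for the value with the length trend removed, described further on; filled markers were called by limma and open ones were not. The 16 JmjC demethylases lie from -2.86 to -0.46, all below 0, and the ALKBH/FTO genes lie from -0.60 to 0.63.

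Many members have long transcripts, and the change in this series runs with transcript length, so the members were set against genes of like length. The longest annotated transcript of the tested members ranged from 1159 to 11766 nt with a median of 5636 nt, beside 3451 nt over the genes tested in KYSE410, and 15 of 34 were over 6000 nt. Over all tested genes with a length, Spearman rho between length and change was -0.27 in KYSE410, 0.06 in KYSE150 (-0.06 without normoxia replicate 2) and -0.35 for the difference in response. In KYSE410 the median log2 change went from 0.46 over genes of at most 1000 nt to -0.48 over genes longer than 6000 nt, where 15 members lie with a median of -0.45. Over the 34 members rho was 0.00 in KYSE410, 0.52 in KYSE150 and -0.53 for the difference, as a description across genes that share libraries.

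Set against the median of their own length class, the JmjC demethylases in KYSE410 no longer lay low: 9 of 16 were above it and 7 below. In KYSE150, 13 of 16 were above and 3 below, and for the difference in response 0 of 16 were above and 16 below, by a median of 0.63 log2 units (-0.625). The ALKBH/FTO genes were above their class in 4 of 9 in KYSE410, 3 of 9 in KYSE150 and 7 of 9 for the difference. When a smooth trend on length was removed from each library before the fit, the members called were 11 higher and 17 lower in KYSE410, where 41.3% of genes were called higher and 40.5% lower, and 17 higher and 9 lower in KYSE150, where 34.3% were called higher and 33.9% lower. For the difference in response 5 were called positive and 20 negative, where 33.2% of genes were called positive and 30.9% negative.

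The loss of lower calls in KYSE410 was among the JmjC demethylases, for which length removal gave 5 higher and 6 lower in place of 3 and 12, while the other groups kept 5, 1 and 5 lower calls. In KYSE150 it gave 12 demethylases higher and 1 lower. Of the 6 with opposite calls, KDM2A, KDM3B, KDM6B and PHF2 were then no longer called in KYSE410, at -0.02, 0.06, -0.00 and -0.10, and KDM5B turned to 0.16 (limma, adjusted p = 0.0485). KDM4A and KDM6A still fell, at -1.80 and -1.06. KDM7A was at -1.51, which is a description because it passed the filter only through normoxia. The difference in response stayed called negative for 14 of 16 demethylases, with a median of -0.61, and KDM5A and PHF8 lost it. With the trend removed and KYSE150 normoxia replicate 2 left out as well, the count was again 14 of 16, with a median of -0.53. The share of all tested genes called in that last fit is not given here. TET3 and TYW5 lost their calls, at -0.21 and -0.01, FTO and ALKBH6 gained one, at 0.78 (limma, adjusted p = 0.00214) and 0.40 (limma, adjusted p = 0.0492), and RIOX1, RIOX2, JMJD4, JMJD6, ALKBH2 and ALKBH3 kept theirs. What produced the length trend was not tested.

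**Figure D5:**
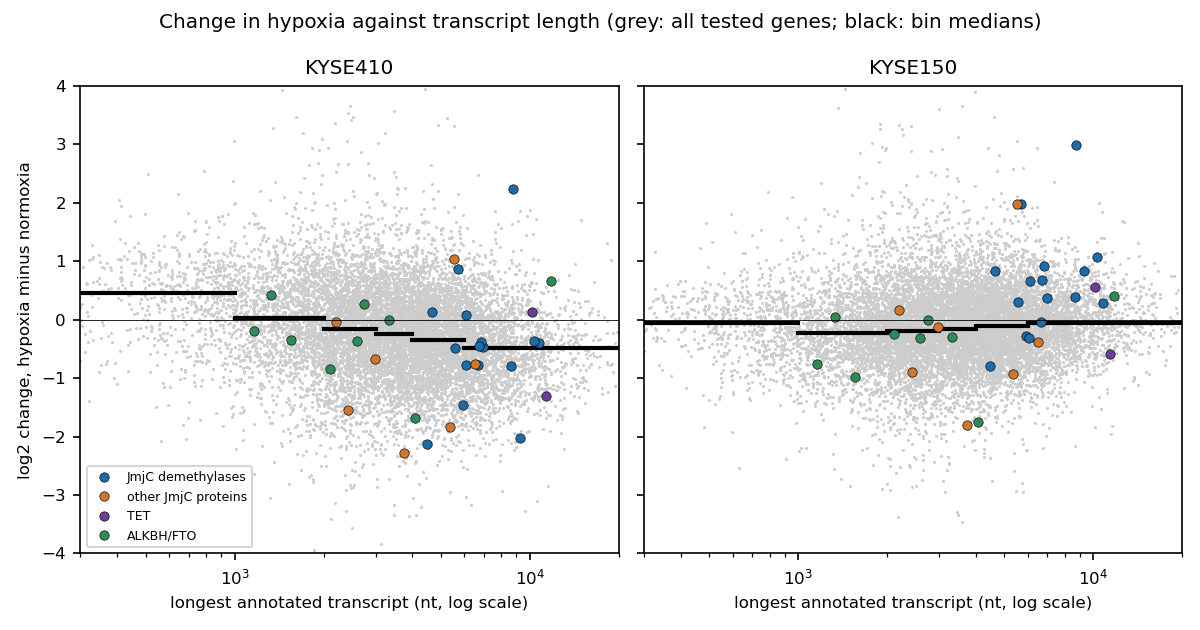
Log2 change in KYSE410 and in KYSE150 against the longest annotated transcript (nt, log axis from 300 nt, changes beyond 4 either way not shown), with all tested genes in grey, the median of each length class as a black line and the 34 tested members coloured by group. The KYSE410 medians fall from 0.46 to -0.48 with length while the KYSE150 medians lie between -0.22 and -0.06, and the JmjC demethylases scatter around the line in KYSE410 and lie mostly above it in KYSE150.

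Histone methyltransferases were counted in the same fits, as a class and without matching each to a demethylase of its mark. Of 23 histone methyltransferases, 2 were called higher, 18 lower and 3 not called in KYSE410, with a median log2 change of -0.64. In KYSE150, 8 were called higher, 6 lower and 9 not called, with a median of 0.01. Of all tested genes, 31.2% were called higher and 51.9% lower in KYSE410, and 23.5% higher and 38.8% lower in KYSE150. SETD1B, one of the 18, averaged 0.632 FPKM in KYSE410 hypoxia and 2.77 FPKM in KYSE410 normoxia. It passed the filter only through normoxia, so a difference was built into its passing, here and with the length trend removed (-0.71). With the length trend removed the KYSE410 counts were 5 higher and 13 lower, with a median of -0.17. In that fit 41.3% of all tested genes were called higher and 40.5% lower. Without normoxia replicate 2 the KYSE150 counts were 9 higher and 11 lower, with a median of -0.16, beside -0.13 over all tested genes. The called shares of all tested genes in that fit are not given here. The difference in response of the methyltransferases was called negative for 15 of 23 and positive for 0, with a median of -0.82. Over all tested genes 36.0% were called negative and 27.3% positive, with a median of -0.09. A more negative response in KYSE410 was thus not limited to the demethylases. With the length trend removed the difference was negative for 13 and positive for 2, with a median of -0.41. In that fit 30.9% of all tested genes were called negative and 33.2% positive. By the largest changes, EHMT2, an H3K9 methyltransferase, rose in both lines, at 1.19 in KYSE410 and 1.11 in KYSE150, and EZH1, of the Polycomb complex, rose at 0.53 in KYSE410 and 0.51 in KYSE150. NSD1 and KMT5A had the deepest falls in KYSE410, at -1.70 and -1.52, and SUV39H2 and SETD1B in KYSE150, at -0.96 and -0.56. In KYSE150 KMT2B at 1.21 and DOT1L at 1.19 rose most.

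The demethylases KDM1A and KDM1B use FAD and not iron and 2-oxoglutarate. KDM1A was 0.04 ± 0.05 and not called in KYSE410 and rose by 0.47 ± 0.07 in KYSE150, and KDM1B rose by 0.49 ± 0.05 in KYSE410 and was -0.06 ± 0.16 and not called in KYSE150. Without normoxia replicate 2 KDM1B was called lower in KYSE150, at -0.26 (limma, adjusted p = 0.00848). Of the DNA methyltransferases, which TET enzymes oppose, DNMT3B fell in both lines, at -0.65 in KYSE410 and -0.54 in KYSE150. DNMT1 rose in KYSE410 at 0.27 and was not called in KYSE150 at 0.24, or was called at 0.12 without normoxia replicate 2 (limma, adjusted p = 0.0409). DNMT3A averaged 0.495 ± 0.120 FPKM in KYSE410 hypoxia and 1.52 ± 0.332 FPKM in KYSE410 normoxia and passed the filter only through normoxia, so its KYSE410 change of -0.74 is a description; it was -0.23 and not called with the length trend removed, and it was not called in KYSE150. Of 9 m6A writer genes, opposed by FTO and ALKBH5, 2 were called higher and 6 lower in KYSE410 and 2 higher and 4 lower in KYSE150. The lower calls include METTL16, which works outside the writer complex, at -0.62 in KYSE410 and -0.35 in KYSE150. The shares of the 9 lie near those of all tested genes in KYSE150 (23.5% and 38.8%) and somewhat above the 51.9% lower in KYSE410. RBM15 rose, at 0.92 in KYSE410 and 1.75 in KYSE150, as did METTL3, the catalytic subunit, at 0.24 in KYSE410 and 0.22 in KYSE150. CBLL1 and RBM15B fell most, at -1.84 and -1.59 in KYSE410 and -0.85 and -1.03 in KYSE150.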

How the data were processed

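The values are deposited FPKM (fragments scaled by transcript length and library size), 1 table per line; the unit was inferred from the values, and read depth is unknown because no whole-read steps remain. Per the submitters' processing notes, bcl2fastq 2.20, fastp 0.22.0, HISAT2 2.2.1 and build hg38 were used; their roles are not stated there, and no source used here names the quantifier, its annotation or its strand setting. Per the labels' protocols, poly(A) RNA was captured on beads from TRIzol extracts. Genes averaging 1 FPKM or more over the libraries of a fit were tested with limma 3.58.1 (R 4.3.3), with a mean trend, on log2(FPKM + 1), and p-values were adjusted by Benjamini-Hochberg over all tested genes. Each line was fitted on its own 6 libraries, and the interaction on all 12, with no block, since deviations of same-numbered libraries correlated between -0.069 and 0.084. Other settings were median-of-ratios, common-sum and quantile scaling, a pseudocount of 0.1, other filters, no mean trend, a stricter threshold of 0.01, each library left out, and removal of a lowess trend (span 0.3) of each library on transcript length (GENCODE 29 gene models). The fits were tested on simulated data. Tables were made in Python 3.11.15.

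The members and lists were chosen with earlier results of these data known. Named with values in every library are members called in at least 1 line with an absolute log2 change of at least 0.5, or with a called difference in response of at least 1; of each other list, up to 2 called genes with the largest rise and 2 with the largest fall per line are named, with the hypoxia markers CA9, NDRG1, BNIP3 and ADM. Protein sequences were not used here.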

Additional observations from a re-analysis of the deposited data

Results flagged for a closer look

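For 27 of the 34 tested members the response to hypoxia differed between the lines by the interaction term of the limma fit over all 12 libraries (KYSE410 log2 change minus KYSE150 log2 change, adjusted p under 0.05). Of these, 3 were positive and 24 negative, where 27.3% of the 12653 tested genes were called positive and 36.0% negative. Among the JmjC demethylases the differences were -2.86 for KDM7A, -1.43 for KDM5B, -1.34 for KDM4A, -1.31 for KDM3B, -1.19 for KDM6A, -1.19 for JMJD1C, -1.13 for KDM6B and -1.11 for KDM4B. The remaining demethylases were at -0.84 for KDM2A, -0.79 for PHF2, -0.75 for KDM3A, -0.73 for KDM2B, -0.69 for KDM4C, -0.67 for KDM5A, -0.59 for KDM5C and -0.46 for PHF8. The other JmjC proteins were at -0.95 for JMJD6, -0.91 for RIOX2, -0.65 for RIOX1, -0.56 for HSPBAP1, -0.47 for JMJD4 and -0.38 for TYW5, and TET3 was at -0.73. With 0.1 in place of 1 FPKM added before the log, RIOX1 was at -1.94 and JMJD4 at -1.86. ALKBH3 at 0.63, ALKBH2 at 0.57 and ALKBH5 at 0.29 were the positive ones, and ALKBH4 was at -0.60. The smallest adjusted p of the 27 was 2.20e-07 for KDM7A and the largest 0.0347 for PHF8. No group had the 4 libraries that a check for single deviating values needs.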

How the results depend on the processing

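Each fit was repeated under 17 other settings in KYSE410, 18 in KYSE150 and 24 for the difference in response. Counting only the settings in which a member was tested, 4 of the 7 higher and 15 of the 23 lower calls remained in KYSE410. In KYSE150, 10 of 13 higher and 7 of 9 lower calls remained. For the difference in response, 2 of 3 positive and 18 of 24 negative calls remained. Some low members counted here were not tested under the filter at a mean of 5 FPKM. The calls that were lost somewhere are KDM4C, ALKBH5, ALKBH7, KDM2A, KDM3B, KDM5A, KDM5B, KDM6B, PHF2, ALKBH1 and ALKBH2 in KYSE410, KDM2A, PHF2, TET2, TYW5 and TET3 in KYSE150, and ALKBH5, KDM5A, PHF8, JMJD4, TYW5, TET3 and ALKBH4 for the difference. Some counts moved by more than 1.5 times. Among these settings, shares of all tested genes are given only for removal of the length trend on the longest transcript. The other counts describe the members alone. A filter at a mean of 5 FPKM, which tests fewer genes, left 13 lower calls in KYSE410 and 5 in KYSE150. In KYSE410 the higher calls were 4 with columns rescaled to a common sum, 11 with quantile normalization and 11 with the length trend removed. Positive differences in response numbered 7 with quantile normalization, 5 with the length trend removed, 6 with that trend taken on the median transcript and 5 with it removed and KYSE150 normoxia replicate 2 left out, a combination chosen after seeing the data. Leaving out 1 library at a time gave 7 higher and 22 to 23 lower calls in KYSE410, 11 to 14 higher and 8 to 11 lower in KYSE150, and 2 to 4 positive and 23 to 25 negative differences. The numbers do not pair the libraries, and a replicate block gave 7 higher and 23 lower calls in KYSE410, 13 and 10 in KYSE150, and 3 positive and 24 negative differences.

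Spearman rho between length and change was -0.168 on median transcript length in KYSE410; in KYSE150 it was 0.06 and turned to -0.008 on median transcript length and -0.057 without normoxia replicate 2. The cause was not tested for the following changes of sign, of which KDM3B, KDM4C, KDM5A, KDM5B and ALKBH2 in KYSE410 and TYW5 for the difference were called with the settings of the report. In KYSE150, under the median of ratios, quantile normalization, length removal and length removal on the median transcript, KDM2B turned to 0.110, 0.078, 0.044 and 0.101, HSPBAP1 to 0.021, 0.006, 0.034 and 0.046, and ALKBH5 to 0.159, 0.116, 0.153 and 0.108. With length removed and normoxia replicate 2 left out, KDM2B turned to 0.109, ALKBH4 to 0.004 and ALKBH5 to 0.179, and with a common sum ALKBH5 turned to 0.002. Leaving out 1 library, KDM2B ranged from -0.078 to 0.010, ALKBH5 from -0.064 to 0.054 and ALKBH7 from -0.002 to 0.144. In KYSE410, length removal turned KDM3B to 0.063, KDM5A to 0.133 and KDM5B to 0.161 (0.108 on the median transcript), a common sum turned KDM4C to -0.091, KDM5C to -0.158 and TET2 to -0.033, and the median of ratios turned ALKBH2 to 0.014. Under the 4 settings named first, JMJD8 turned to 0.147, 0.225, 0.082 and 0.141 and ALKBH6 to 0.177, 0.326, 0.235 and 0.143. Leaving out 1 library, JMJD8 ranged from -0.083 to 0.008 and ALKBH6 from -0.070 to 0.034. For the difference in response, length removal turned TET2 to 0.062, 0.137 (median transcript) and 0.092 (without KYSE150 normoxia replicate 2), and TYW5 to 0.028 (median transcript). ALKBH1 turned to 0.012 (median of ratios), 0.144 (quantile) and 0.021 (length, median transcript) and ranged from -0.145 to 0.028 with 1 library left out, and ALKBH8 turned to -0.135 (common sum) and ranged from -0.002 to 0.196. Lengths were at hand for 96.0% to 96.2% of tested genes. Depth is unknown, so no counting error could be set beside the low members KDM4D, KDM8 and TET1.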

Other observations

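Enzymes that make or consume 2-oxoglutarate, the cosubstrate of the dioxygenases, and its reduced form 2-hydroxyglutarate, an inhibitor, were counted in the same fits. Of 8 genes, 1 was called higher, 5 lower and 2 not called in KYSE410, with a median log2 change of -0.29, and 0 were called higher, 3 lower and 5 not called in KYSE150, with a median of -0.16. The lower calls lie near the 51.9% of all tested genes in KYSE410 and 38.8% in KYSE150. Without KYSE150 normoxia replicate 2 the KYSE150 counts were 2 higher and 4 lower, in a fit whose shares over all tested genes are not given here. IDH1, the cytosolic isocitrate dehydrogenase, averaged 71.0 ± 1.72 FPKM in KYSE410 hypoxia and 91.5 ± 2.25 FPKM in KYSE410 normoxia, and 24.5 ± 1.52 FPKM in KYSE150 hypoxia and 110 ± 3.08 FPKM in KYSE150 normoxia (SD, n = 3 each). It fell in both lines, with log2 changes of -0.36 ± 0.03 in KYSE410 (limma, adjusted p = 1.31e-05) and -2.13 ± 0.07 in KYSE150 (limma, adjusted p = 7.67e-07). IDH3A, a subunit of the mitochondrial NAD-dependent enzyme, fell at -0.70 in KYSE410 and -0.81 in KYSE150. OGDH, which consumes 2-oxoglutarate, fell in KYSE410 at -0.54 and was not called in KYSE150 at -0.20 (-0.28 and called without normoxia replicate 2; limma, adjusted p = 0.00204), and IDH3B rose in KYSE410 at 0.26 and was not called in KYSE150 at 0.19 (0.31 and called without that library; limma, adjusted p = 0.00279).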
